A study of Mus musculus with 2 samples.

Results

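Histone genes were read in poly(A)-primed RNA of single splenic T cells. The cells came from control mice and from mice labelled as lacking the arginine methyltransferase PRMT5 in T cells. The members were all genes whose symbol marks a replication-dependent histone (Hist1h to Hist4h), an H2A variant (H2af), an H1 variant (H1f) or an H3.3 gene (H3f3). This rule found 82 of the 30905 genes listed, of which 67 were replication-dependent and 15 were variant genes. An antisense transcript of H3f3a, H3f3aos, carries a symbol that the rule takes in and was counted with the variants.

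Both groups are C57BL/6 mice, and each group is 1 droplet library of spleen T cells sorted by flow cytometry on CD3. The titles name a Prmt5 CKO sample (CRE) and a control sample (WT), whereas the genotype label of both reads CD4-Cre+ PRMT5fl/fl, so the genotype of the controls is not settled by the labels and groups were taken from the titles. CD4-Cre removes floxed sequence in developing αβ T cells from the stage at which they express CD4. Most γδ T cells do not pass through that stage. Each library pooled 3 mice per group by the design text, cells were not assigned to mice, and no age or further treatment is given. Since each group is a single library, there is no replicate to test against, genotype and library cannot be told apart, and every interval below is a 95% interval for counting error alone.

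Replication-dependent histone genes supply the core histones H2A, H2B, H3 and H4 and the linker histone H1 during DNA synthesis. Their messages lack introns and usually end just after a short stem-loop instead of a poly(A) tail, and the protein SLBP binds that stem-loop. Variant genes such as H3f3a, H3f3b and H2afz are transcribed throughout the cell cycle, have introns and carry poly(A) tails. A library primed on poly(A) counts tags and does not read messages in full. Messages that end at the stem-loop may therefore be missed. This also holds for H2afx, a variant gene whose model has a stem-loop.

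The CKO library held 7896 barcodes with 52387620 unique molecular identifiers (UMIs, each standing for 1 captured molecule), and the control library held 7407 barcodes with 48273424 UMIs. After filters and removal of 92 B-like and myeloid-like cells from each library, 7568 CKO and 6620 control T cells remained, with medians of 6049 and 6288.5 UMIs. The libraries shared 11 barcodes. Levels are given as CPM, the UMIs of a gene or group per 1000000 UMIs of the same cells. Prmt5 stood at 4.87 CPM in CKO and 15.03 in control T cells, a ratio of 0.324 (0.279 to 0.375). Of 20 markers of B cells, plasma cells, myeloid cells, neutrophils, red cells, platelets and stroma, 16 were higher and 3 lower in CKO T cells, and Col3a1 was at 0 in both libraries. Their levels summed to 132.6 CPM in CKO and 94.4 in control, of which Cst3 alone gave 101.9 and 78.6, and without Cst3 to 30.7 and 15.7. The red cell genes Hbb-bs and Hba-a1 stood at 5.43 and 2.84 CPM in CKO and 0.62 and 0.51 in control, and Cd79a at 2.49 and 1.56. The part of these cells' RNA in the results was not tested. Clusters were named after markers, with -like added, such as Treg-like for Foxp3, Il2ra, Ikzf2 and Ctla4, and 2 clusters were left unnamed.

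The stem-loop is shown first because replication-dependent messages usually end just after it. It was searched in GENCODE vM21 transcripts, on the transcript strand, as the 16 bases GGC, any base, CTTTT, any base, AG, any base, GCC. It lies in 42 of the 67 replication-dependent genes, in H2afx, and in 47 of all 55450 genes (0.0848%). Several transcripts without it are short as annotated, such as that of Hist1h4k with 312 bases and that of Hist1h2bl with 381. A stem-loop past the annotated end could not be found, so the 42 may be too few. The genes shown are the most abundant H2A gene in dividing cells, another H2A gene whose model runs on to a polyadenylation signal, a linker gene and an H2B gene read in resting cells, an H4 gene that was lower in CKO cells, and the single variant gene with the motif. Capitals mark the stem-loop, written 5′ to 3′ with T for U.
Hist1h2ap: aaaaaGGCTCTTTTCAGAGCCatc
Hist1h2ae: acaaaGGCTCTTTTCAGAGCCattca
Hist1h1c: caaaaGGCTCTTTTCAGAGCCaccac
Hist3h2ba: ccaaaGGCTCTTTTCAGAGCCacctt
Hist1h4n: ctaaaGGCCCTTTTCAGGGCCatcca
H2afx: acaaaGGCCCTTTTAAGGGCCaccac
In mm10 (GRCm38) the stem-loops of Hist1h2ap, Hist1h2ae and Hist1h4n lie on the minus strand at chr13:21833029-21833044, chr13:23570668-23570683 and chr13:21831798-21831813. Those of Hist1h1c, Hist3h2ba and H2afx lie on the plus strand at chr13:23739512-23739527, chr11:58949349-58949364 and chr9:44335240-44335255.

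Among the members the motif took 6 forms. The form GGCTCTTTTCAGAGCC was found in 26 members, among them Hist1h2ap and Hist1h1c, and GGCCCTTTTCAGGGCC in 7, among them Hist1h4n. What follows the stem-loop differed more than the stem-loop itself. The annotated model of Hist1h2ap ends 3 bases after it, that of Hist1h2ab 11 and that of Hist1h4n 31. Models of other genes run on past it, by 151 bases in Hist1h2ae, 169 in Hist3h2ba, 822 in H2afx, 840 in Hist1h1c and 1643 in Hist3h2a. A polyadenylation signal was searched as AATAAA or ATTAAA on the transcript strand in the last 50 bases of a model. It was present in 17 of 67 replication-dependent genes, 11 of 15 variant genes and 43.9% of all genes. As with the stem-loop, a signal past the annotated end could not be found, so these counts may be too low. The longest model of Hist1h2bc has 2 exons and held neither the stem-loop nor the signal in these windows.

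The members lie in a few gene clusters. Of the replication-dependent genes 54 are on chromosome 13, 10 on chromosome 3, 2 on chromosome 11 and 1 on chromosome 6, and by family they are 6 H1, 18 H2A, 18 H2B, 12 H3 and 13 H4 genes. Their coding sequences are near copies of each other, so a tag may belong to several genes. A median of 49.5% of the 50-base words in a replication-dependent gene's transcripts recurred in another gene, against 6.14% for variant genes. Hist1h2ap shared 93.1% and Hist1h4n 85.6% of their words, and their separate values are uncertain for that reason, while Hist1h2bc shared 30.1% and Hist3h2ba 22.1%. H3f3aos overlaps H3f3a on the opposite strand. Some members share exon positions with another gene on the same strand. Among them are Hist3h2a with Trim17, Hist1h1e with Hist1h2be and Gm11398, and Hist1h2ac with Gm24991. The part of these overlaps in the values was not tested.

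No UMI was found in T cells for 10 members, the replication-dependent Hist2h2aa2, Hist1h2bq, Hist1h4m, Hist1h1t, Hist1h2ba and Hist1h2aa and 4 H2afb gene entries. Hist2h2aa2, Hist1h2bq and Hist1h4m shared 100%, 97.3% and 89.8% of their 50-base words with other genes, so few tags could be theirs alone. Hist1h2ba shared 38.2%, Hist1h2aa 2.35% and Hist1h1t 0%. Whether the messages of the first 3 were absent was not tested. Another 14 had 1 to 49 UMIs in both libraries together, and 58 had at least 50, of which 49 were replication-dependent and 9 variant. The member just inside this minimum had 52 UMIs and the one just outside had 49. Of all T cell UMIs, the replication-dependent genes took 354.8 CPM in CKO (18226 UMIs) and 321.1 in control (14998 UMIs), a ratio of 1.11 (1.08 to 1.13). The sums of both kinds of gene were next read in cells with and without a Mki67 UMI.

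Mki67 encodes a nuclear protein of dividing cells, and a cell was called Mki67-positive with 1 UMI or more. This held for 194 CKO cells (2.56%) and 144 control cells (2.18%). After each cell had been thinned to 2000 UMIs, which left out 53 CKO and 25 control cells, the shares were 1.17% and 0.849%. Mki67-positive cells were deeper, with medians of 13419.5 and 13123.5 UMIs against 5986 and 6266 in Mki67-negative cells, so levels were compared as CPM.

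Replication-dependent tags were far more abundant in Mki67-positive cells, and variant tags moderately so. In CKO cells the replication-dependent sum was 209.8 CPM without and 2683.7 CPM with Mki67, and in control cells 196.1 and 2798.7 CPM. The ratios were 12.8 (12.4 to 13.2) in CKO and 14.3 (13.8 to 14.7) in control. Variant genes stood at 4039.9 and 7831.6 CPM in CKO and 3752.4 and 7088.9 in control, with ratios of 1.94 (1.91 to 1.96) and 1.89 (1.86 to 1.92). In both libraries the replication-dependent ratio thus lay far above the variant ratio. Mki67-positive cells held 5.86% of all CKO and 4.80% of all control T cell UMIs, but 44.3% and 41.8% of the replication-dependent UMIs, and 10.8% and 8.70% of the variant UMIs.

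**Figure D1:**
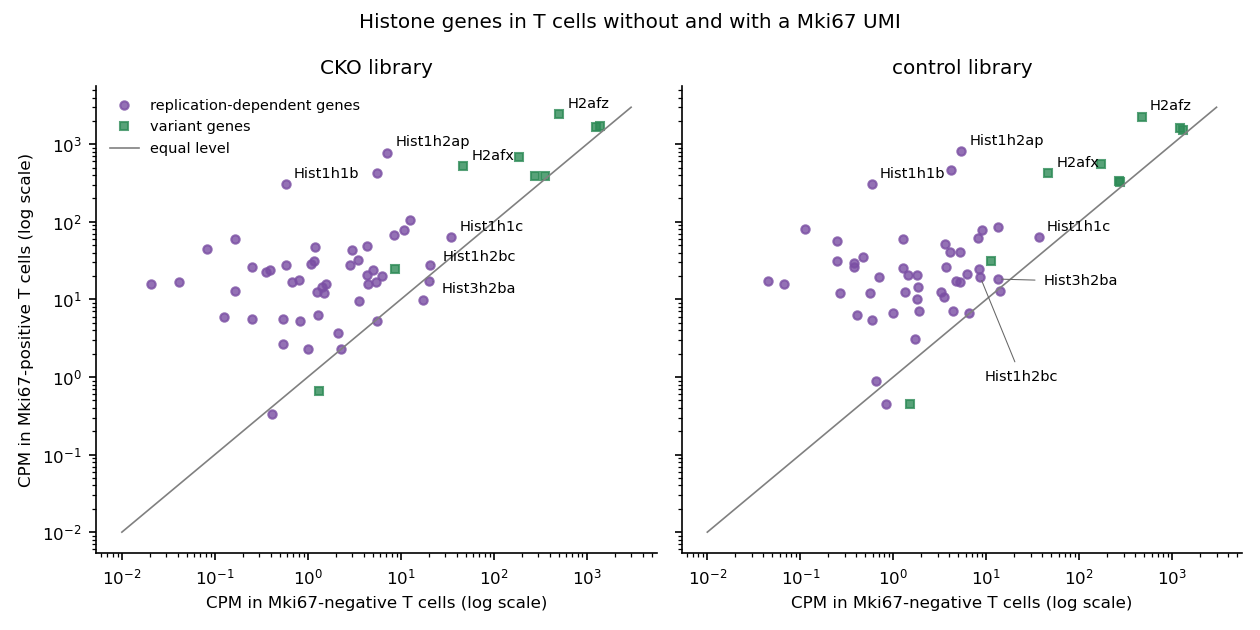
Level of each histone gene with at least 50 UMIs in Mki67-negative T cells (x axis, CPM, log scale) and Mki67-positive T cells (y axis, CPM, log scale), for the CKO library on the left and the control library on the right. Circles are replication-dependent genes, squares are variant genes and the line marks equal levels. Genes at 0 on an axis are left out. Hist1h1b and Hist1h2ap stand far above the line in both panels, while Hist3h2ba and the variants H2afy, H3f3a, H3f3b and H2afj lie near it.

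Gene by gene, 42 of the 58 members with at least 50 UMIs were at least 2-fold higher in Mki67-positive cells in both libraries, against 8.14% of all 11515 such genes. None was 2-fold lower in both, against 0.808% of all genes. The count covered 38 of 49 replication-dependent and 4 of 9 variant genes. The median ratio was 9.92 in CKO and 8.72 in control for replication-dependent genes, 1.39 and 1.34 for variant genes, and 1.09 and 1.10 for all genes. A low gene reaches the minimum more readily where it is high, so the count was also taken over the 36 replication-dependent genes with at least 50 UMIs in Mki67-negative cells alone, of which 27 passed, against 7.46% of all 11327 genes with that minimum.

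Linker and H2A genes gave the largest numbers of tags in dividing cells. Hist1h1b encodes the linker histone H1.5 and lies at chr13:21779883-21780625 on the minus strand. It had 926 UMIs in 194 Mki67-positive CKO cells and 28 in 7374 Mki67-negative ones, or 307.6 and 0.58 CPM. The control cells gave 308.2 CPM (691 UMIs) and 0.58 CPM (26 UMIs), so the ratios were 531 (365 to 804) and 527 (357 to 813). Levels of Hist1h1b were thus near equal between libraries in both kinds of cell, and 97 of 194 Mki67-positive CKO cells and 53 of 144 control ones held a UMI of it, unthinned.

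Hist1h2ap and Hist1h2ae encode H2A. Hist1h2ap (chr13:21833026-21833507, minus strand) stood at 779.9 CPM in Mki67-positive and 7.09 in Mki67-negative CKO cells, and at 810.8 and 5.42 CPM in control cells. The ratios were 110 (98.1 to 123) and 150 (131 to 172). Hist1h2ae (chr13:23570517-23571220, minus strand) stood at 428.1 and 5.54 CPM in CKO and 470.5 and 4.23 CPM in control, with ratios of 77.2 and 111. Together Hist1h2ap, Hist1h2ae and Hist1h1b gave 56.5% of replication-dependent tags in Mki67-positive CKO cells and 56.8% in control ones. These shares count tags from a library primed on poly(A), not molecules made. Whether the tagged messages were polyadenylated was not tested.

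In all, 17 replication-dependent genes were at least 16-fold higher in Mki67-positive cells in both libraries, against 1.29% of all genes. With the minimum met in Mki67-negative cells alone, 7 of 36 were, against 0.724% of all genes. The 17 were the linker genes Hist1h1a and Hist1h1b, the H2A genes Hist1h2ab, Hist1h2ae, Hist1h2af, Hist1h2ag, Hist1h2ak, Hist1h2an and Hist1h2ap, the H2B genes Hist1h2bb, Hist1h2bj, Hist1h2bk, Hist1h2bl, Hist1h2bm and Hist1h2bn, and the H3 genes Hist1h3b and Hist1h3c. No H4 gene was in this group, and Hist1h4b came nearest with 22.8 in CKO and 15.4 in control. Some of these ratios rest on very few resting tags. Hist1h3c had 4 UMIs in Mki67-negative CKO and 11 in control cells, with ratios of 542 (207 to 2018) and 231 (125 to 474). Hist1h2af had 1 and 2 such UMIs, with ratios of 755 (129 to 30442) and 387 (100.1 to 3306). Hist1h3b had none in Mki67-negative control cells and was at least 205-fold higher in the positive ones, with a floor of 3 UMIs over the library.

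A further 21 replication-dependent genes passed 2-fold without reaching 16-fold in both libraries. Hist1h1e, a linker gene, stood at 106.3 and 12.5 CPM in CKO and 84.7 and 13.5 in control cells, ratios of 8.51 and 6.26. The H4 genes Hist1h4i and Hist1h4d gave 7.19 and 8.09 in CKO and 7.42 and 8.72 in control. The others of this middle group were Hist1h1d, Hist1h2ac, Hist2h2aa1 and Hist2h2ac, the H2B genes Hist1h2be, Hist1h2bg, Hist1h2bh, Hist1h2br and Hist2h2bb, the H3 genes Hist1h3a, Hist1h3e, Hist1h3f, Hist1h3i and Hist2h3b, and the H4 genes Hist1h4a, Hist1h4b, Hist1h4c and Hist1h4h. The lowest of them in control was Hist1h2ac, with 2.99.

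The 11 genes that did not pass were Hist1h1c, Hist1h2bc, Hist1h4n, Hist2h2ab, Hist2h2be, Hist2h3c1, Hist2h3c2, Hist2h4, Hist3h2a, Hist3h2ba and Hist4h4. Hist1h1c, the linker gene for H1.2, stood at 63.1 CPM in Mki67-positive and 34.7 in Mki67-negative CKO cells, and at 63.8 and 36.7 in control, ratios of 1.82 (1.56 to 2.12) and 1.74 (1.45 to 2.06). Hist3h2ba, an H2B gene on chromosome 11, had ratios of 0.86 (0.64 to 1.14) and 1.38 (0.98 to 1.90). Its neighbour Hist3h2a had 0.57 (0.38 to 0.82) and 0.92 (0.61 to 1.33), and Hist4h4 had 0.97 and 1.02. In resting cells other genes led the tags than in dividing ones. Hist1h1c gave 16.5% of replication-dependent UMIs in Mki67-negative CKO and 18.7% in control cells, followed by Hist1h2bc with 9.77% and Hist3h2ba with 9.57% in CKO, and by Hist3h2a with 7.18% and Hist1h1e with 6.90% in control.

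The split by 3′ end ran alongside the split by Mki67. Among replication-dependent genes with at least 50 UMIs, 13 have a polyadenylation signal near the end of a model, and 6 of these passed 2-fold in both libraries. Their median ratio was 2.71 in CKO and 1.803 in control, from 0.57 to 77.2 in CKO. Of the 36 without such a signal in the annotated models 32 passed, with medians of 18.4 and 14.2. These models include short ones, such as that of Hist1h2bl with 381 bases and that of Hist1h2ap, which ends 3 bases after the stem-loop. Genes in this group may have a signal past the annotated end. All 13 genes with fewer than 50 UMIs in Mki67-negative cells are in this second group, and 11 of them passed, so they met the minimum through the cells where they are high. Over the 23 genes that met it in Mki67-negative cells alone, a limit added after seeing the data, 21 passed and the medians were 9.92 and 8.72. The groups overlapped, since Hist1h2ae has a signal and ratios of 77.2 and 111, while Hist2h2ab has none and ratios of 0.80 and 1.37. This is a description of annotated models, and the ends of the captured molecules were not analysed here.

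**Figure D2:**
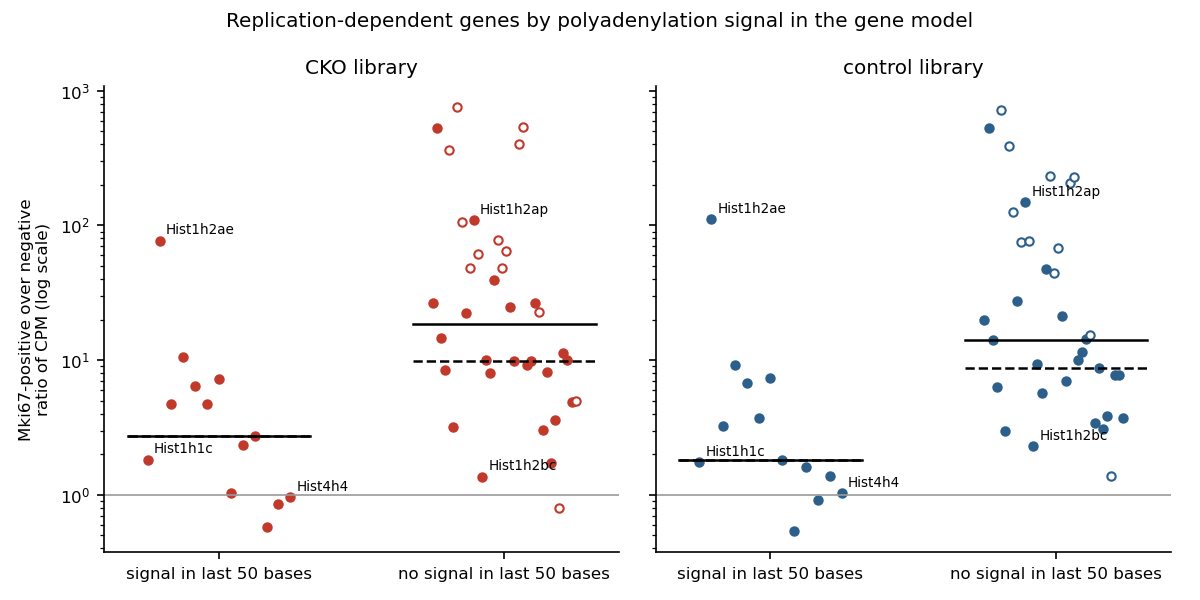
Mki67-positive over Mki67-negative ratio of CPM (log scale) for the 49 replication-dependent genes with at least 50 UMIs, by whether a gene model holds a polyadenylation signal in its last 50 bases, in each library. Points are genes, hollow where Mki67-negative cells gave fewer than 50 UMIs, solid black lines are medians of all points, dashed lines are medians of filled points and the grey line marks equal levels. Hist1h3b is drawn in the control panel with a floor of 3 UMIs in place of its 0 in Mki67-negative cells, and Hist2h3c2, at 0 there, is left out. Medians are 2.71 and 1.803 with a signal and, without one, 18.4 and 14.2 over all points and 9.92 and 8.72 over filled points.

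Among the 9 variants with at least 50 UMIs, H2afx had the highest ratio in this contrast. H2afx encodes H2A.X, which is phosphorylated at DNA breaks, and its annotated model runs on past the stem-loop to a polyadenylation signal. It stood at 516.8 CPM in Mki67-positive and 46.8 in Mki67-negative CKO cells, and at 423.7 and 45.9 in control, ratios of 11.03 (10.3 to 11.8) and 9.22 (8.53 to 9.97). H2afz, for H2A.Z, had ratios of 4.91 and 4.81, H2afv, for a second H2A.Z protein, 3.72 and 3.31, and H1f0, for the linker H1.0, 2.90 and 2.85. The remaining abundant variants changed least. H2afy, for macroH2A, had 1.39 and 1.27, H3f3a 1.30 and 1.34, H3f3b 1.22 and 1.18, and H2afj 1.11 and 1.16.

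Cells within the dividing population differed widely. In the proliferating-like cluster, which was found without histone genes and holds 125 of the 194 CKO and 67 of the 144 control Mki67-positive cells, the median Mki67-positive cell had 53 replication-dependent UMIs in CKO and 86 in control, and the highest had 307 and 417. The 28 richest CKO cells and the 16 richest control cells were enough to hold 50% of the replication-dependent UMIs of all Mki67-positive cells. Outside that cluster the median was 3 and 1. Of the Mki67-negative cells, 34.8% in CKO and 33.8% in control held no replication-dependent UMI at all. Every cell type here may transcribe histone genes, so no type that should lack them was available as a background, and the part of free RNA in single tags was not tested.

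Mki67-positive cells were then split by whether they held at least as many UMIs of 20 S phase genes as of 19 G2 and M phase genes, a range cut from a score and not a cell type. In CKO 98 cells leaned to S phase and 92 to G2 and M, in control 94 and 47, and 34 and 26 lay near the dividing line. The replication-dependent sum was lower in the cells leaning to S phase, at 2108.7 against 3389.4 CPM in CKO and 1739.7 against 4828.5 in control. Within the proliferating-like cluster the values were 3007.3 and 3913.3 CPM in CKO, a ratio of 0.769 (0.734 to 0.804), and 2879.1 and 5980.7 in control, a ratio of 0.481 (0.457 to 0.507). In that cluster the H1 genes had a ratio of 1.04 (0.943 to 1.15) in CKO and 0.4999 (0.443 to 0.563) in control, whereas variant genes had 0.779 and 0.752. Over all Mki67-positive cells, Hist1h1b had 0.85 and 0.36 and H2afx 0.29 and 0.19. The difference between libraries was not tested.

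The 2 libraries were next compared within Mki67-negative T cells. The replication-dependent sum was 209.8 CPM in CKO (10146 UMIs) and 196.1 in control (8723 UMIs), a ratio of 1.07 (1.04 to 1.10). A single gene, Hist1h2bc, carried most of this excess, and without it the ratio was 1.01 (0.980 to 1.04). By family the CPM in CKO and control were 51.9 and 55.7 for H1, 47.8 and 43.4 for H2A, 56.3 and 37.8 for H2B, 12.0 and 14.9 for H3, and 41.9 and 44.3 for H4. The ratios were 0.931 for H1, 1.10 for H2A, 1.49 (1.40 to 1.58) for H2B, 0.803 (0.717 to 0.899) for H3 and 0.946 for H4. The H2B sum was thus higher and the H3 sum lower in CKO. Without Hist1h2bc and Hist3h2ba, left out after seeing the data, the other 16 H2B genes had 760 and 712 UMIs and a ratio of 0.982 (0.885 to 1.09). Variant genes stood at 4039.9 and 3752.4 CPM, a ratio of 1.08 (1.07 to 1.08).

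A gene is called higher or lower between libraries below where its CPM differs by at least 1.5-fold, its interval excludes 1 and it has at least 50 UMIs over both libraries in the cells compared. In Mki67-negative T cells 45 members had enough UMIs. Of these, 2 were higher in CKO, Hist1h2bc and Hist3h2ba, against 4.18% of all genes, and 1 was lower, Hist1h4n, against 1.85% of all genes. These shares are near the background. The median log2 ratio was -0.11 for 36 replication-dependent genes and 0.08 for 9 variant genes, beside 0.05 for all 11327 genes. Over all T cells, 1 of 58 members was higher, Hist1h2bc (4.54% of all genes), and 2 were lower, Hist1h2bl and Hist1h4n (1.82%). Hist1h2bl was not called in cells with a UMI of a Y-linked gene alone. Nor was it called among cells with 1000 genes or more and less than 5% mitochondrial UMIs, where 7 of 54 members were lower. The median log2 ratios were 0.04 for the members and 0.05 for all genes.

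Over all Mki67-negative T cells, Hist1h2bc had the largest difference of the 45 members with at least 50 UMIs. It encodes an H2B protein, lies at chr13:23684199-23692908 on the plus strand, and gave 991 UMIs (20.5 CPM) in Mki67-negative CKO and 382 (8.59 CPM) in control T cells, a ratio of 2.39 (2.12 to 2.69). A UMI of it was found in 10.1% of those CKO cells and 5.14% of the control cells, unthinned. In naive-like CD4 cells it stood at 25.4 and 12.1 CPM (ratio 2.10, 1.79 to 2.46), in naive-like CD8 cells at 11.4 and 5.32 CPM (2.15, 1.54 to 3.03) and in Treg-like cells at 31.3 and 10.2 CPM (3.08, 2.07 to 4.67). Levels were higher in CKO in each of these classes, and the intervals of their ratios overlap. Thinned to 2000 UMIs per cell, 4.67% of CKO and 2.34% of control naive-like CD4 cells held a UMI of Hist1h2bc (11.1% and 6.29% unthinned, 36 and 13 cells left out, median depths 5549 and 5712 UMIs), and 7.71% and 2.01% of Treg-like cells did (14.2% and 6.34% unthinned, 4 and 8 left out, 5514 and 5818 UMIs).

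Other classes gave Hist1h2bc with fewer tags. Interferon-responding-like cells had 28.2 and 10.6 CPM (2.66, 1.45 to 5.26) and memory-like CD4 cells 13.9 and 6.63 CPM (2.10, 1.08 to 4.06). In memory-like CD8 cells the difference was not detectable at 6 and 21 UMIs (1.18, 0.389 to 3.02), and in effector-like CD8 cells 6 and 4 UMIs gave 0.386 (0.0915 to 1.86). B-like cells had 24 and 9 UMIs and a ratio of 2.01 (0.903 to 4.92), an interval that takes in both 1 and the T cell value. In Mki67-positive T cells the ratio was 1.42 (0.976 to 2.10). The naive-like CD4 class is made of clusters 1, 2, 3, 4 and 15, and cluster 2 is mostly CKO, with 1520 CKO and 77 control cells. The ratio of Hist1h2bc was 2.21 (1.60 to 3.07) in cluster 1, 2.06 (1.53 to 2.80) in cluster 3 and 1.65 (1.22 to 2.24) in cluster 4, so it did not rest on cluster 2, where 263 against 3 UMIs gave 4.55 (1.54 to 22.2).

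The neighbour of Hist1h2bc behaved differently. Hist1h2ac, an H2A gene, lies at chr13:23681467-23683948 on the minus strand, and its model and that of Hist1h2bc point away from each other with 250 bases between them. It had 302 UMIs (6.25 CPM) in CKO and 371 (8.34 CPM) in control Mki67-negative cells, a ratio of 0.749 (0.641 to 0.874), while Hist1h2bc had 2.39. The RefSeq promoter of Hist1h2ac (mm10, chr13:23683910-23684209, minus strand) is shown because it covers this gap. Capitals mark an octamer, the binding motif of POU factors such as OCT1, which starts 130 bases before the start site and lies between the gene models.
Hist1h2ac promoter: gtgggattATGCAAATgaagtttc

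Promoters were matched for 75 members as 250 bases before to 50 after the RefSeq start site, and searched on both strands. The H2B genes Hist1h2bc and Hist2h2be had no matched promoter and were not searched. The octamer, ATTTGCAT or on the other strand ATGCAAAT, was in 7 of 18 H2A and 7 of 17 H2B promoters of replication-dependent genes and in none of their H1, H3 and H4 promoters, in 1 of 13 variant promoters, that of H3f3b, and in 1.74% of 32851 promoters. It read ATTTGCAT along the gene in these 7 H2B promoters and ATGCAAAT in these 7 H2A promoters. In 3 pairs of divergent genes 1 octamer lay in both promoters, Hist1h2ae with Hist1h2bg, Hist1h2ah with Hist1h2bk and Hist1h2aa with Hist1h2ba. A pair with Hist1h2bc or Hist2h2be could not be counted without a matched promoter, so the 3 may be too few. By position, the octamer of Hist1h2ac lies between its model and that of Hist1h2bc. The octamer of Hist2h2ac, at chr3:96221073-96221080, lies ahead of the Hist2h2be model, which starts at chr3:96221119 on the plus strand. The windows of the first pair are printed to show that each is the reverse complement of the other, with the octamer at chr13:23571341-23571348.
Hist1h2ae promoter: gaggttctATGCAAATaagggact
Hist1h2bg promoter: agtcccttATTTGCATagaacctc

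Hist1h2ae and Hist1h2bg, which share that octamer, stood at 5.54 and 4.23 CPM (ratio 1.31, 1.08 to 1.59) and at 1.43 and 1.33 CPM (1.08, 0.749 to 1.55) in Mki67-negative CKO and control cells. Of the 4 H2A genes with the octamer and at least 50 UMIs in those cells 2 had a ratio above 1, and of the 3 such H2B genes 1 did. With the same minimum, 12 of 36 replication-dependent genes and 6731 of all 11327 genes had a ratio above 1. Among replication-dependent genes, CCAAT was in every H1, H2A, H2B and H3 promoter searched and in 3 of 12 H4 promoters, beside 9 of 13 variant promoters and 37.4% of all promoters. TATAAA was in 4 of 6 H1, 11 of 18 H2A, 8 of 17 H2B, 4 of 10 H3 and 8 of 12 H4 promoters of these genes, in 1 of 13 variant promoters and in 13.6% of all. None of these motifs contains another, and the matches describe letters in a window alone.

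**Figure D3:**
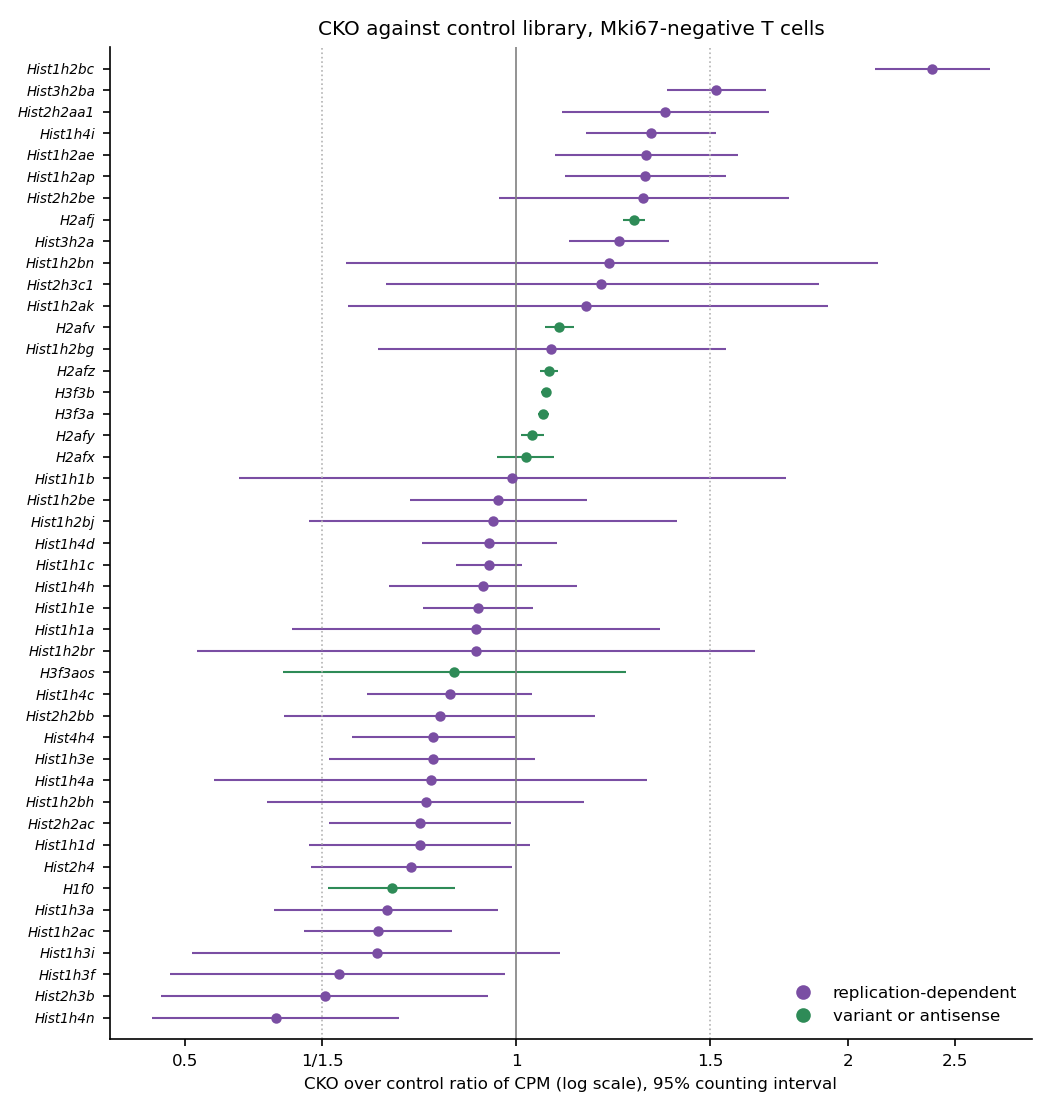
CKO over control ratio of CPM in Mki67-negative T cells (x axis, log scale, with 95% counting intervals) for the 45 histone genes with at least 50 UMIs there, ordered by ratio. Purple points are replication-dependent and green points variant genes or H3f3aos, and dotted lines mark 1.5-fold either way. Hist1h2bc stands apart at 2.39, Hist3h2ba follows at 1.52 and Hist1h4n is lowest at 0.605.

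Hist3h2ba, an H2B gene at chr11:58948920-58949533, had 971 UMIs (20.1 CPM) in CKO and 588 (13.2 CPM) in control Mki67-negative cells, a ratio of 1.52 (1.37 to 1.69), just past the 1.5-fold line. Under 5 of 6 alternatives its ratio was below that line, from 1.40 to 1.49. It was higher in naive-like CD4 (1.37, 1.197 to 1.57), naive-like CD8 (1.53, 1.15 to 2.04) and Treg-like cells (2.08, 1.42 to 3.08). In memory-like CD4 cells 17 against 50 UMIs gave 0.748 (0.404 to 1.32). Hist3h2a, the H2A gene beside it on chromosome 11, stood at 17.4 and 14.1 CPM, a ratio of 1.24 (1.12 to 1.38). Hist1h4i, an H4 gene, stood at 10.9 and 8.23 CPM (1.32, 1.16 to 1.52), and the H2A gene Hist1h2ap at 7.09 and 5.42 CPM (1.31, 1.11 to 1.55). None of these 3 reached 1.5-fold.

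Lower values were found for other members. Hist1h4n had 102 UMIs (2.11 CPM) in CKO and 155 (3.49 CPM) in control Mki67-negative cells, a ratio of 0.605 (0.467 to 0.782), with the reservation that most of its sequence recurs in other H4 genes. Hist1h2bl, called lower over all T cells, rested on 24 and 39 UMIs (0.56, 0.322 to 0.954). H1f0, the linker variant of differentiated cells, stood at 8.58 and 11.1 CPM (0.771, 0.675 to 0.880). In Treg-like cells it had 68 UMIs (22.7 CPM) against 141 (41.1 CPM), a ratio of 0.552 (0.407 to 0.743), and in naive-like CD4 cells 7.70 and 8.06 CPM (0.955, 0.763 to 1.198). The linker genes Hist1h1e and Hist1h1d gave 0.923 (0.823 to 1.03) and 0.818 (0.648 to 1.03), whose intervals take in 1.

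By class, the calls in naive-like CD4 cells were 1 of 37 members higher (3.41% of all genes), Hist1h2bc, and 3 lower (1.62%), Hist1h2bh, Hist1h3a and Hist2h4. Hist1h2bh had 27 and 34 UMIs (0.575, 0.334 to 0.982), Hist1h3a 56 and 62 (0.654, 0.447 to 0.954) and Hist2h4 94 and 103 (0.661, 0.494 to 0.883). Each of these 3 intervals comes close to 1. In naive-like CD8 cells 2 of 28 members were higher (4.31% of all genes), Hist1h2bc and Hist3h2ba, and 2 were lower (1.56%), Hist1h4n with 16 and 41 UMIs (0.408, 0.214 to 0.743) and Hist2h2ac with 35 and 70 (0.523, 0.338 to 0.795). Median log2 ratios of the replication-dependent genes were -0.21 in naive-like CD4 and -0.11 in naive-like CD8 cells, beside 0.04 and 0.06 for all genes.

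Sums within classes show where the libraries differed. The replication-dependent sum was 221.0 and 216.8 CPM in naive-like CD4 cells (1.02, 0.977 to 1.06) and 176.0 and 179.5 in naive-like CD8 cells (0.980, 0.917 to 1.05). Without Hist1h2bc the naive-like CD4 ratio was 0.955 (0.915 to 0.998). Of its clusters, cluster 2 gave 1.44 (1.15 to 1.83) on 2168 against 78 UMIs, while cluster 1 gave 0.917 and cluster 4 gave 1.14. In Treg-like cells, regulatory T cells that express Foxp3, the sum was 246.7 CPM in CKO and 183.1 in control (1.35, 1.21 to 1.501). Effector-like CD8 cells had 236.9 and 328.6 CPM (0.721, 0.566 to 0.925) on 258 and 92 UMIs, with 45 control cells in the class. Memory-like CD4 (1.09, 0.947 to 1.24), memory-like CD8 (0.921, 0.789 to 1.07) and γδ-like cells (0.780, 0.543 to 1.15) had intervals that take in 1. B-like cells stood at 355.7 and 369.9 CPM (0.961, 0.776 to 1.19).

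**Figure D4:**
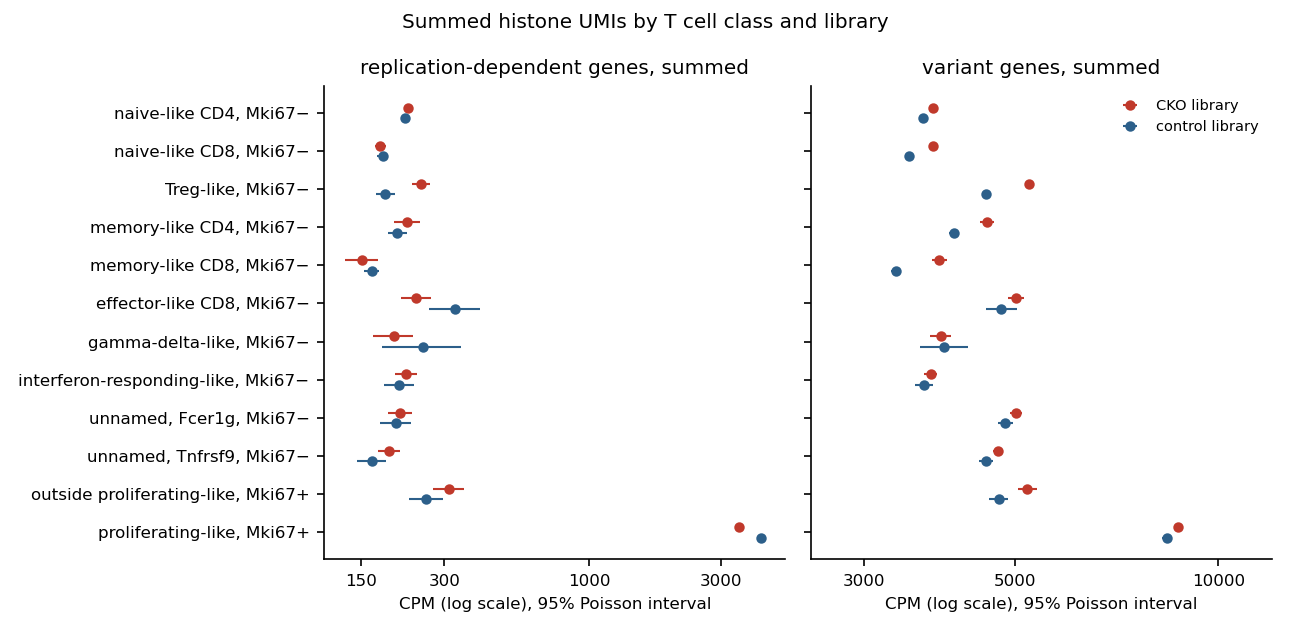
Summed CPM (x axis, log scale, with 95% Poisson intervals) of replication-dependent genes on the left and variant genes on the right, by T cell class and library. Rows marked with a minus sign are Mki67-negative cells and the lowest 2 rows are Mki67-positive cells. Treg-like cells differ upward in CKO in both panels, and the proliferating-like row lies far to the right of the others.

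**Figure D5:**
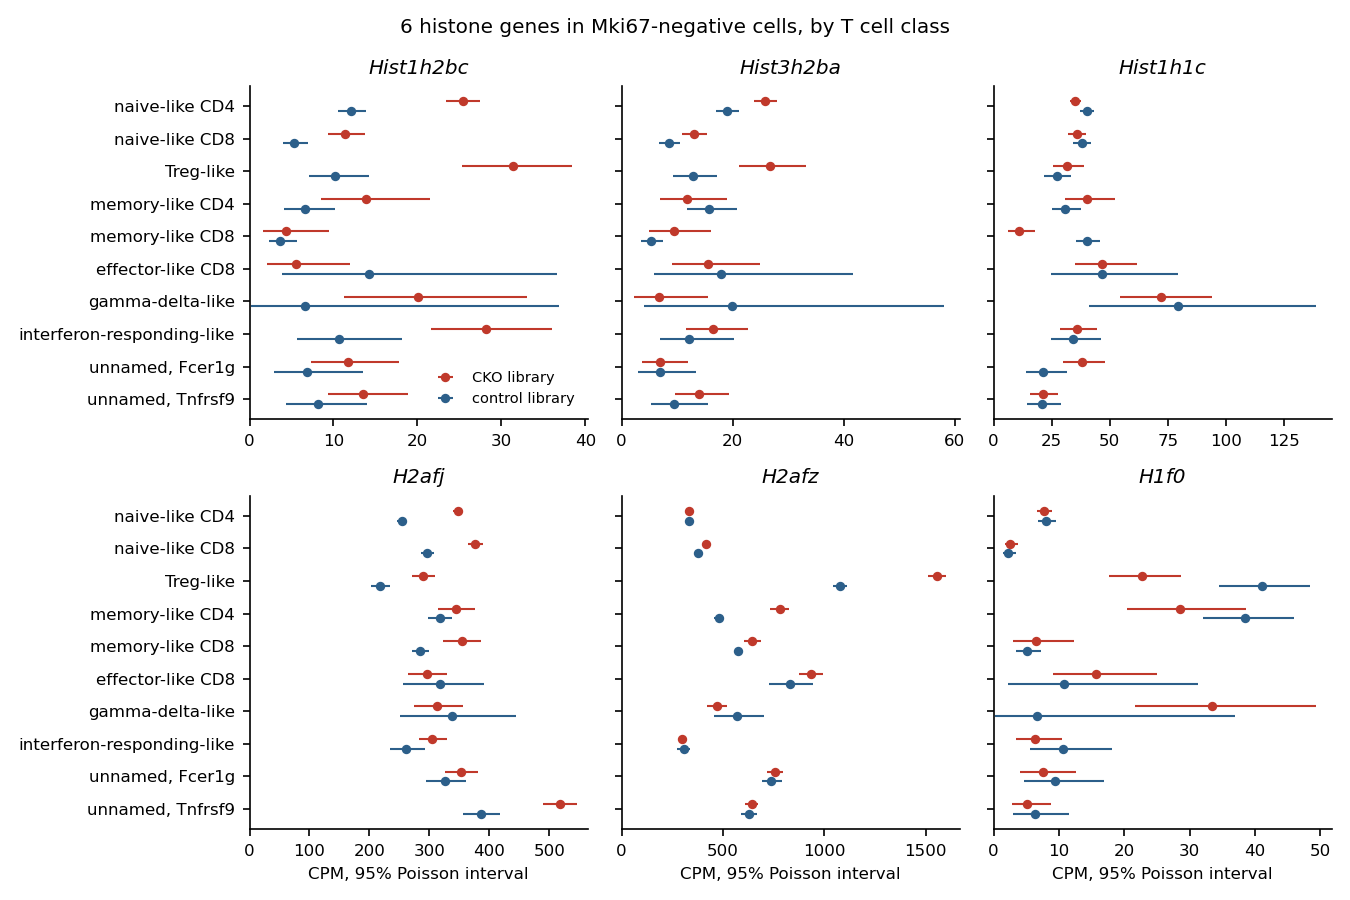
CPM with 95% Poisson intervals (x axes, each from 0 with its own scale) of 6 histone genes in Mki67-negative cells of each T cell class, CKO in red and control in blue. Hist1h2bc and H2afj are higher in CKO in the naive-like and Treg-like rows, Hist1h1c is lower in the memory-like CD8 row and H1f0 is lower in the Treg-like row.

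Variants were read with far more tags, and their ratios were smaller. H2afj, for the variant H2A.J at chr6:136808244-136810074, had 17159 UMIs (354.8 CPM) in CKO and 12338 (277.4 CPM) in control Mki67-negative cells, a ratio of 1.28 (1.2497 to 1.31). It was higher in naive-like CD4 (347 and 254 CPM, 1.36), naive-like CD8 (376 and 297 CPM, 1.27) and Treg-like cells (289 and 218 CPM, 1.33). In effector-like CD8 cells the interval took in 1 (0.930, 0.734 to 1.19), and in B-like cells 132 and 98 UMIs gave 1.02 (0.777 to 1.33). Each naive-like CD4 cluster from 1 to 4 had a ratio of H2afj between 1.249 and 1.44.

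H2afz differed by class. In Treg-like cells it stood at 1556 CPM in CKO and 1078 in control (1.44, 1.38 to 1.51), and in memory-like CD4 cells at 779 and 481 CPM (1.62, 1.498 to 1.75). In naive-like CD4 cells it stood at 333 and 330 CPM (1.01, 0.974 to 1.04), and in B-like cells at 263 and 375 CPM (0.703, 0.558 to 0.884). Outside the proliferating-like cluster, Treg-like cells held the highest level of H2afz among the classes in both libraries. The H3.3 genes H3f3a and H3f3b had ratios of 1.06 and 1.06 in Mki67-negative cells, H2afv 1.09, H2afy 1.03 and H2afx 1.02 (0.960 to 1.08). H3f3aos had 64 and 67 UMIs (0.878, 0.614 to 1.26), and H1fx had 21 UMIs in all, too few to be counted.

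In Mki67-positive cells the sum of replication-dependent genes was 2683.7 CPM in CKO and 2798.7 in control, a ratio of 0.959 (0.928 to 0.991). This direction depended on which dividing cells were counted. In the proliferating-like cluster the Mki67-positive cells had 3484.5 and 4213.2 CPM (0.827, 0.7997 to 0.855), and outside it 310.7 and 258.1 CPM (1.203, 0.994 to 1.46). With each Mki67-positive cell counted equally, the ratio was 1.12, and in cells with a UMI of a Y-linked gene alone it was 0.738. The share of G2 and M leaning cells also differed between libraries, as given above, and its part in this ratio was not tested. Variant genes stood at 7831.6 and 7088.9 CPM (1.10, 1.08 to 1.13).

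None of 45 members was higher in Mki67-positive CKO cells by the 1.5-fold rule (4.14% of all genes), and 1 was lower (2.36%), the H3 gene Hist1h3f, with 37 UMIs (12.3 CPM) against 46 (20.5 CPM), a ratio of 0.599 (0.378 to 0.944). Families lay close to each other here, at 1.03 for H1, 0.930 for H2A, 0.967 for H2B, 0.934 for H3 and 0.992 for H4. The H2B excess of Mki67-negative cells was therefore not seen in the sum of these cells, where Hist1h2bc gave 27.9 and 19.6 CPM of 255.8 and 264.5. Median log2 ratios were -0.08 for replication-dependent and 0.16 for variant genes, beside 0.02 for all genes. H2afx stood at 516.8 and 423.7 CPM (1.22, 1.12 to 1.32) in all Mki67-positive cells and at 673 and 633 CPM (1.06, 0.980 to 1.16) in those of the proliferating-like cluster.

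Genes that make histone messages and carry histones were read beside the members over all T cells. Of 18 genes for histone transcription and 3′ end formation 17 had at least 50 UMIs, and none differed by 1.5-fold, with a median log2 ratio of 0.13. By the same rule 4.54% of all genes were higher and 1.82% lower in CKO. Slbp, for the stem-loop binding protein, stood at 93.2 and 83.6 CPM (1.11, 1.07 to 1.16) and was 3.57-fold and 3.72-fold higher in Mki67-positive CKO and control cells. Lsm1 and Casp8ap2 each had a ratio of 1.07, Upf1, which acts in histone message decay, 1.10, and Eri1, an exonuclease that trims the stem-loop end, 0.997 (0.939 to 1.06). None of 25 histone chaperones and exchange factors differed by 1.5-fold (median log2 ratio 0.05). Of these lists, 6 of 17 supply genes and 11 of 25 chaperones were at least 2-fold higher in Mki67-positive cells of both libraries, against 8.14% of all genes. Coprs, whose protein links PRMT5 to histones, had 13 and 17 UMIs, too few to compare.

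Cell cycle genes were read in the same way. None of 20 S phase genes differed by 1.5-fold over all T cells (median log2 ratio 0.11), among them Dut (1.11), Pcna (0.953), Mcm6 (0.961), Mcm4 (1.17) and Mcm3 (1.11). Of 20 G2 and M genes 4 were higher in CKO, against 4.54% of all genes, and none was lower, against 1.82% (median log2 ratio 0.35, beside 0.05 for all genes), namely Ccnb2 (1.74, 1.54 to 1.97), Birc5 (1.60, 1.47 to 1.73), Ube2c (1.52, 1.40 to 1.66) and Hmmr (1.52, 1.27 to 1.83). Cenpa had 1.08, Cks2 1.24, Top2a 1.201 and Mki67 1.23. The part of this difference in the all-cell ratio of the replication-dependent genes, 1.11, was not tested, and the ratio within Mki67-negative cells was 1.07.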

How the data were processed

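Single-cell RNA of 2 pooled libraries, made with 10x Chromium 3′ chemistry per the labels, was analysed. The deposited matrices hold UMI counts, whole numbers per gene and barcode without normalization. The submitters' processing notes name Cell Ranger 3.1.0, CASAVA 1.8, Seurat 2.3.4 and mm10, without giving their roles. Barcodes were kept from 500 genes upward when mitochondrial genes took less than 10% of their UMIs. Scrublet called 0 doublets in either library and so did not work, and doublets remain. With scanpy 1.11.5 and leidenalg 0.10.2, both libraries were clustered on 2000 variable genes without histone, receptor, immunoglobulin, mitochondrial and ribosomal genes (30 components, 15 neighbours, seed 1, resolution 1), and named from marker lists. Counts were summed per class and library as CPM with exact Poisson intervals, and ratios with exact conditional binomial intervals (scipy 1.17.1, 95%, counting error only). The ratio script was tested on simulated data. With 1 library per group no p-value is given.

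The genes, lists and classes were chosen with earlier results of these data known. Named members were the 10 most abundant of each kind, those past 1.5-fold in all T cells or a naive-like class, and those past 2-fold with Mki67. Of the supply, S phase and G2 and M lists, the 5 most abundant genes and those past 1.5-fold were named. Hist2h2ab, Hist2h2be, Hist2h3c1, Hist2h3c2, Hist4h4, the 6 replication-dependent genes at 0 and Hist1h2ah were named after their values were seen. Stem-loop positions came from GENCODE vM21 exons and promoters from RefSeq (GRCm38). Alternatives covered cell filters, doublet scores, the CPM denominator, cell weights, class and Mki67 definitions, thresholds, and leaving out single genes.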

Additional observations from a re-analysis of the deposited data

Results flagged for a closer look

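Hist1h1c, the linker gene for H1.2, differed between the libraries in opposite directions by class, and these differences between classes were not tested. Its CKO over control ratio was 1.78 (1.11 to 2.93, 71 and 25 UMIs) in the unnamed class led by Fcer1g, 0.875 (0.791 to 0.969, 846 and 700 UMIs) in naive-like CD4 cells and 0.269 (0.148 to 0.453, 15 and 230 UMIs) in memory-like CD8 cells, all Mki67-negative. Memory-like CD8 cells stood at 10.8 CPM of Hist1h1c in CKO and 40.3 in control, and numbered 166 and 601. Within naive-like CD4 cells, cluster 1 gave 0.704 (0.571 to 0.864) for Hist1h1c and cluster 4 gave 1.04 (0.846 to 1.28).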

How the results depend on the processing

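Hist1h2bc stayed the single member called higher over all T cells under each alternative but the lower fold threshold. With that threshold, 6 of 58 members were higher and 6 lower. With stricter cells, of 1000 genes or more and less than 5% mitochondrial UMIs, 7 of 54 members were lower. Of these 7, Hist1h4n was shared with the 2 reported. The share of all genes was not counted under either setting, so these counts have no background beside them. Below, values are given as CKO over control for Mki67-negative (resting) and Mki67-positive (dividing) cells, and as dividing over resting in CKO and control. Differences in their size have causes that were not tested.

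For replication-dependent genes, a denominator without mitochondrial, ribosomal protein and receptor genes gave 1.032 resting, 0.9265 dividing, and 10.76 and 11.98 dividing over resting. The cell filter above gave 0.8996 dividing, and 13.96 and 16.77. Each cell counted equally reversed the dividing ratio to 1.119, with 11.07 and 10.53. Cells with a Y-linked UMI alone gave 0.7377, with 10.07 and 14.75. Mki67 called after thinning gave 0.8203, with 14.115 and 18.71, and the proliferating-like cluster in place of Mki67 gave 0.814, with 15.33 and 20.12. Without Hist1h2ap, the most abundant member, dividing over resting was 9.391 and 10.42, and without the highest 6% of doublet scores it was 14.83 in control. As alternatives chosen after seeing the data, the class makeup of the control gave 1.032 resting, and leaving out Hist1h2bc gave 1.009 resting and 0.9553 in naive-like CD4 cells.

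For variant genes, the same denominator gave 1.0387 resting, 1.0675 dividing, 1.0082 in naive-like CD4 and 1.0459 in naive-like CD8 cells, and 1.6308 and 1.5868 dividing over resting. The cell filter gave 1.0526, 1.0599, 1.0227 and 1.0579, with 2.0232 and 2.0094. Each cell counted equally gave 1.2135 dividing and 1.0466 in naive-like CD4 cells, with 1.8798 and 1.6684. Cells with a Y-linked UMI alone gave 1.0692 resting and reversed the dividing ratio to 0.8946, with 1.7551 and 2.0976. Mki67 called after thinning gave 1.0244 dividing, with 2.0858 and 2.2029, and the proliferating-like cluster gave 1.033, with 2.1126 and 2.1989. Without H3f3b, the most abundant variant, the values were 2.3166 and 2.2718, and 1.0611 in naive-like CD4 cells. Marker gates in place of clusters gave 1.0199 in naive-like CD4 cells, and a Leiden resolution of 0.5 gave 1.1022 in naive-like CD8 cells. Leaving out the mostly CKO cluster 2, chosen after seeing the data, gave 1.1055 in naive-like CD4 cells. H2afy in resting cells reversed to 0.9977 with the other denominator.

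Of the alternative values for the main ratios and the counts of called members, 58 moved, 2 reversed and 55 did neither. Ratios were judged by the counting interval of the main value. Of the values for single members, 150 moved by less than their counting interval, 17 moved by more and 1 reversed. Depth limits the smaller classes, where single genes had fewer than 50 UMIs. No paired analysis was possible because each group is 1 library and no replicate number links them.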
